A study of Homo sapiens with 4 samples.

Results

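The replication-dependent histone genes of human chromosome 6 lie in a pair of subclusters, where 29 of the 115281 m6A peaks in the study were listed. Members were chosen by position, as every listed peak on chromosome 6 (build hg19) with its summit between 26017000 and 26290000, here subcluster 1, or between 27090000 and 27870000, here subcluster 2. The control list held 16 of its 63093 peaks in these windows and the CDCA list 13 of its 52188. N6-methyladenosine (m6A) had been mapped in GES-1, a line of human gastric epithelial cells, by sequencing RNA fragments that an m6A antibody pulls down. The 4 samples were an input and an m6A immunoprecipitation for each of 2 conditions, cells without treatment (control) and cells exposed to CDCA (the primary bile acid chenodeoxycholic acid) at 100 µM for 48 h. All came from total RNA freed of ribosomal RNA, and the study asked which m6A sites differ under the bile acid in connection with the demethylase ALKBH5. Only the immunoprecipitation libraries, 1 per condition, have the peak lists used here, so conditions could not be tested against each other. The identity of the line was not checked.

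Histones are the proteins around which DNA is wound: H2A, H2B, H3 and H4 form the nucleosome core and H1 binds the linker DNA between cores. Their replication-dependent genes are short and intronless, are transcribed mainly in S phase, and give messages that end in a conserved stem-loop, bound by SLBP, in place of a poly(A) tail. Libraries from RNA depleted of ribosomal RNA keep such messages, which poly(A) selection would lose. m6A is laid down on adenosines of nascent transcripts by the METTL3 complex, is frequent in long internal exons and near stop codons, and can be removed by ALKBH5.

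In the RefSeq gene table (GRCh38.p14, used here for names, order and lengths only), the run from H1-1 to H4C8 held 32 protein-coding histone genes and the run from H2BC11 to H2BC17 held 21. Together these 53 comprised 6 H1, 11 H2A, 14 H2B, 10 H3 and 12 H4 genes. Most were short, with a median of 766 bp for H1, 495 bp for H2A, 481 bp for H2B, 505 bp for H3 and 399 bp for H4. The first run also contains HFE, the iron-regulating gene mutated in hereditary haemochromatosis, between H1-2 and H4C3. The second contains 5 other protein-coding genes, among them PRSS16, a serine protease of the thymus, and the zinc-finger genes ZNF391 and ZNF184, as well as 51 transfer RNA genes. The peak lists carry no gene names and no hg19 annotation was used here, so peaks are given by position and none is assigned to a histone gene. A summit inside a window is therefore not by itself a histone site.

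Most of the windows held no listed peak. When summits up to 10 kb apart were joined across both lists, the 29 peaks formed 13 groups, of which 2 lay in subcluster 1 and 11 in subcluster 2. Peaks of both lists were present in 6 groups, control peaks alone in 3 and CDCA peaks alone in 4. Within a list, members were no closer together than peaks of chromosome 6. The median distance between neighbouring summits was 11.22 kb in control and 22.19 kb in CDCA, against 10.97 and 14.36 kb on the chromosome. Distances of at most 10 kb were 7 of 14 in control and 2 of 11 in CDCA, against 47.3% and 41.2%. In subcluster 1, all 3 control peaks and 2 of the 3 CDCA peaks lay within one stretch of 8.48 kb. In subcluster 2, no peak of either list was found between 27092744 and 27368358.

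**Figure D1:**
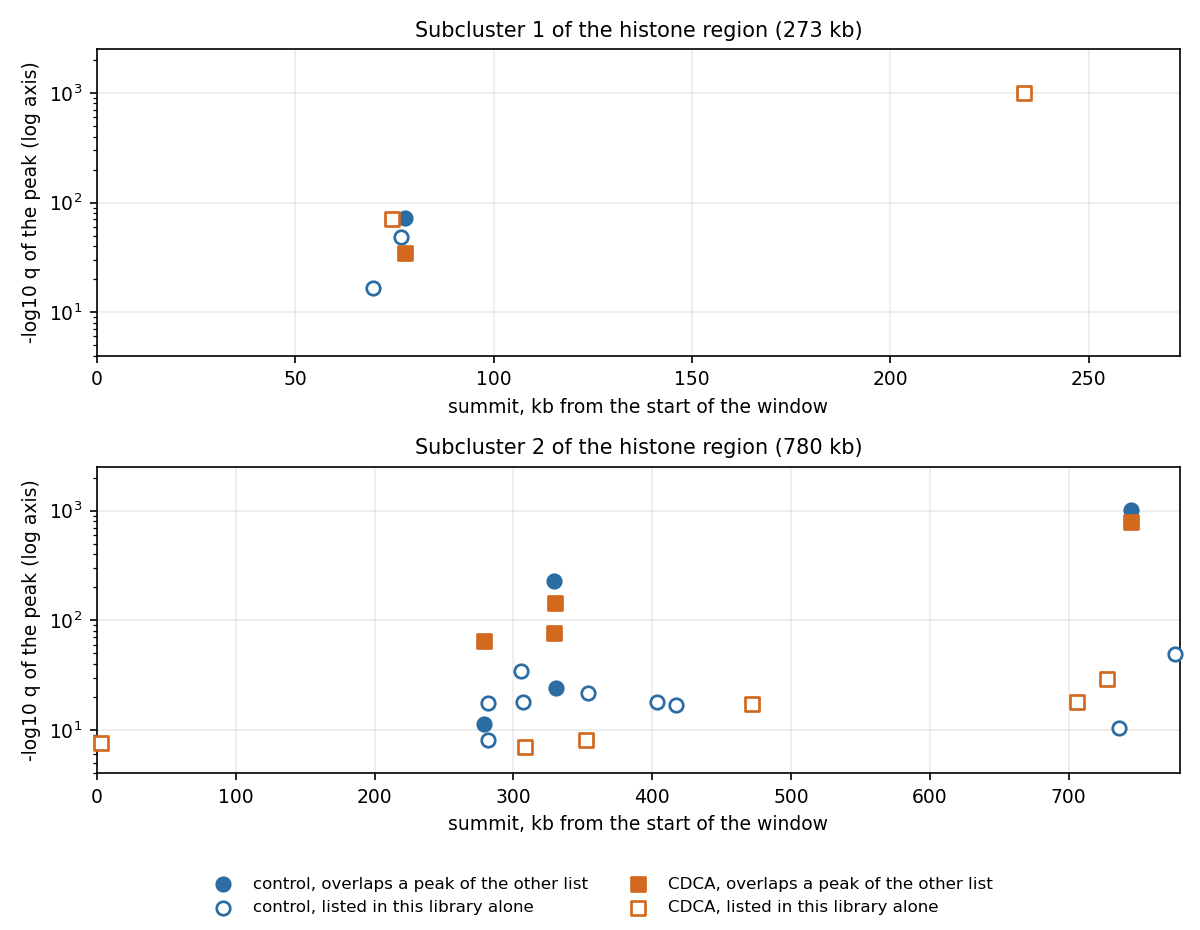
Members of the histone region by summit position (x axis, kb from the start of each window) and −log10 q (y axis, log scale), with the control list as blue circles and the CDCA list as orange squares; filled symbols mark peaks with a partner in the other library (1 bp of overlap or more). The 2 highest positions, at about 234 kb in subcluster 1 and 745 kb in subcluster 2, carry the 3 peaks with a −log10 q of 792 or more, and the remaining peaks lie far below them.

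The most significant site of the region lay in subcluster 2 and was listed in both libraries. The control peak spanned 27834581 to 27834960 (380 bp) and the CDCA peak 27834597 to 27834974 (378 bp), with summits 1 bp apart. The authors' −log10 q was 1010.80 in control, rank 385 of that list, and 792.44 in CDCA, rank 482. The height of the pileup at the summit was 2422.69 in control and 1835.14 in CDCA, ranks 81 and 128. Both peaks thus stood among the tallest of their lists.

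Their enrichment over the local background was low, however. Fold enrichment, which is summit height plus 1 over local background plus 1, was 6.02 in control and 6.26 in CDCA, where no listed peak of either library lies below 6. The local background, computed from height and fold, was 401.6 in control and 292.2 in CDCA. These were the background ranks 10 of 63093 and 20 of 52188. Few listed peaks of either library thus stood on a higher background. Such a background is commonly taken from the input, but the sources used here do not state how it was made.

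A site of the same kind was listed in CDCA-treated cells alone. The CDCA peak at 26250589 to 26250891 (303 bp) in subcluster 1 had a height of 2376.91, a background of 394 (rank 6 of 52188), a fold enrichment of 6.02 and a −log10 q of 991.44 (rank 335). The nearest control peak was 62644 bp away. Between its listed neighbours there, 26094790 and 26313535, the control list leaves out 3 running peak numbers, and a missing number gives no position. Neither list holds a peak with a fold below 6, and whether a control peak was called at this site with a lower fold was not tested.

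High background and low fold went together in these 3 peaks, but not across all listed peaks of that kind. Backgrounds of at least 300 were found in 18 control and 16 CDCA peaks, with a median fold of 8.57 and 11. A fold below 6.5 was seen in 4 of the 18 control peaks and in 1 of the 16 CDCA peaks, and in each list 1 of those was a histone region peak. The remaining one, the CDCA peak at 27834597, had a background just under that level. Backgrounds of at least 100 were found in 142 control peaks (0.225% of the list) and 131 CDCA peaks (0.251%). Of these, 124 control (87.3%) and 110 CDCA peaks (84.0%) had a partner in the other list. The high-background CDCA peak of subcluster 1 was among the minority without one.

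**Figure D2:**
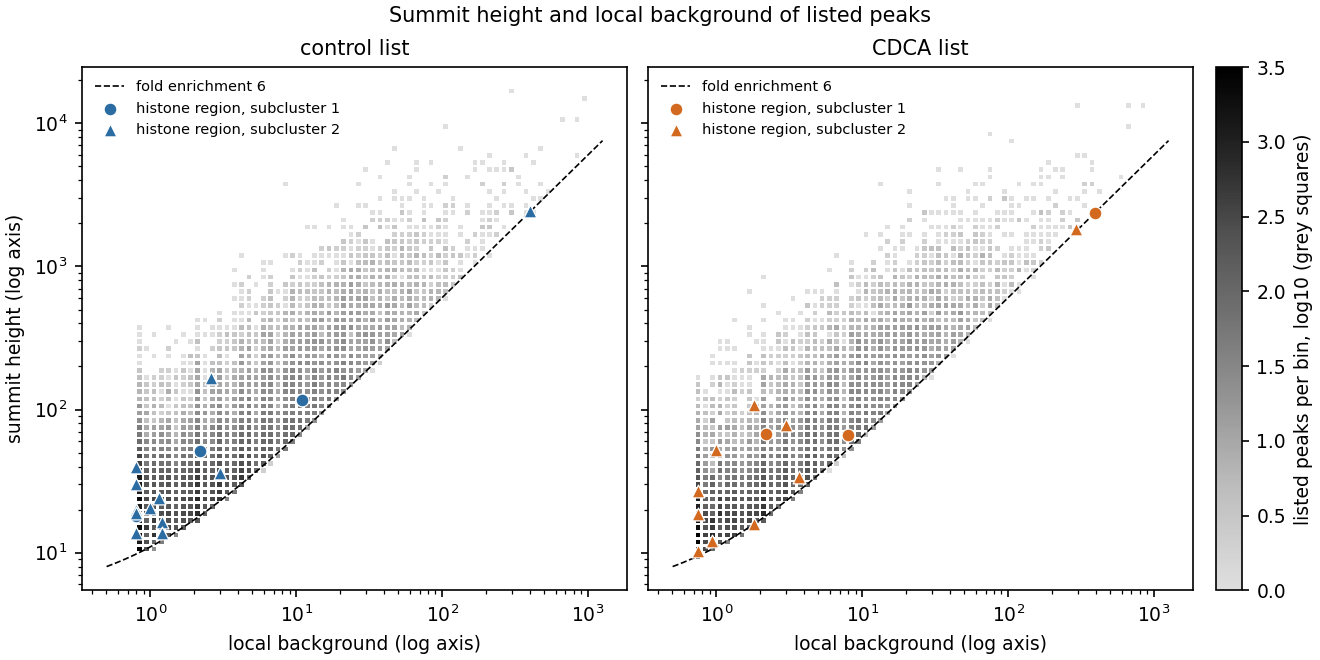
Summit height (y axis) against local background (x axis), both on log axes, for the control list (left) and the CDCA list (right); grey squares count all listed peaks and coloured symbols are the histone region peaks of subcluster 1 (circles) and subcluster 2 (triangles). The 3 peaks with a background of 292 to 402 lie at the dashed line of fold enrichment 6, and the other 26 have a background of 11 or less.

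The other 26 peaks of the region sat on far less background than these 3. Among 15 control peaks the background reached at most 11, the height at most 166.5 and the median fold was 11.10 (6.73 to 46.52). Among 11 CDCA peaks these values were 8, 107.5 and 11.20 (6.07 to 38.74). The lowest background of the whole list, within 0.01, was found at 7 of the 16 control peaks (43.8%) and 3 of the 13 CDCA peaks (23.1%), against 32.8% and 36.7% over the whole lists.

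The highest fold enrichment of the region was at a broad site of subcluster 2 listed in both libraries. In control it was a peak of 1176 bp at 27419036 to 27420211, with a height of 166.46, a fold of 46.52 and a −log10 q of 228.25. A second control peak followed at 27420663 to 27421095, with a fold of 9.31 and a −log10 q of 24.07. In CDCA the same stretch was divided differently. A peak of 461 bp at 27419087 to 27419547 had a height of 78.04, a fold of 19.76 and a −log10 q of 77.19. It was followed by one of 1082 bp at 27419908 to 27420989, with a height of 107.46, a fold of 38.74 and a −log10 q of 143.72. The leading summits of the stretch were 83 bp apart at its left end, at 27419140 in control and 27419223 in CDCA, while the highest CDCA summit stood at 27420060. The peaks of 1176 and 1082 bp were the only members over 1000 bp, and each was longer than 48 of the 53 histone genes in RefSeq.

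Another shared site of subcluster 2 was narrow in control and broad in CDCA. The control peak at 27368665 to 27368864 had the shortest length listed, 200 bp, a height of 16.39, a fold of 7.90 and a −log10 q of 11.33. The CDCA peak at 27368358 to 27369208 was 851 bp long, with a height of 51.81, a fold of 26.41 and a −log10 q of 65.05. The summits were 7 bp apart, so both lists placed the site at the same position. The control list held 2 more peaks within 4 kb of it, at 27371481 (fold 10.85, −log10 q 17.58) and 27371944 (6.73 and 8.06), which had no CDCA partner.

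Subcluster 1 had a single group of low-background peaks. The last peak of the group was shared: in control it spanned 26094212 to 26094790, with a height of 116.43, a fold of 9.79 and a −log10 q of 72.24, and in CDCA 26094370 to 26094877, with 66.52, 7.50 and 34.43. The 2 intervals overlapped by 421 bp, and their summits were 172 bp apart. Control-only peaks preceded it at 26093424 (286 bp, fold 16.48, −log10 q 47.98) and 26086394 (200 bp, 10.62 and 16.74). A CDCA-only peak lay at 26091257 (362 bp, fold 21.50, −log10 q 70.73), and the gap to the closest control peak was 1806 bp. Each list thus had its highest fold of subcluster 1 at a peak that the other list lacked.

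The remaining control-only peaks had heights of at most 39.67, the value of a peak near the end of subcluster 2. This peak at 27866805 to 27867032 had a fold of 22.61 and a −log10 q of 49.08 on the lowest background of the list, 31831 bp from the nearest CDCA peak. The others were at 27394996 (fold 17.34, −log10 q 34.39), 27443411 (11.75 and 21.61), 27396944 (11.58 and 18.11), 27493645 (11.58 and 18.11), 27507372 (11.10 and 16.74) and 27825943 (8.23 and 10.29). Their heights ran from 13.80 to 30.19.

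The remaining CDCA-only peaks lay in subcluster 2, with heights of 10.23 to 33.90. The strongest was at 27817697 to 27817911, with a fold of 15.96 and a −log10 q of 28.81. The others were at 27795946 (7.49 and 18.11), 27561517 (11.20 and 17.08), 27442195 (6.78 and 8.13), 27092545 (6.07 and 7.60) and 27398322 (6.43 and 6.95). The peaks at 27398322 and 27442195 lay 1122 and 1017 bp from control peaks that had no partner either, so these stretches were listed in both libraries at positions that did not overlap.

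Library-specific peaks were the larger part of the members, as of the lists. Of the control peaks 11 of 16 (68.8%) had no CDCA peak overlapping by 1 bp, where the share over the whole control list was 81.8%. Of the CDCA peaks 8 of 13 (61.5%) had no control partner, where the share over the whole CDCA list was 77.8%. Conversely, 5 control peaks were shared (31.2%, exact Clopper-Pearson 95% interval 11.02 to 58.7, which covers counting error only) and 5 CDCA peaks (38.5%, 13.9 to 68.4). The intervals contain the whole-list shares of 18.2% and 22.2%. Between the subclusters the shared part was 32.5% in control and 38.7% in CDCA, close to that in the region. With 50% reciprocal overlap, 2 control (12.5%) and 2 CDCA peaks (15.4%) stayed shared, the pairs at 26094212 and 27834581. With summits at most 100 bp apart there were 3 of each (18.8% and 23.1%). Among peaks with a −log10 q of 20 or more in both lists, 4 of 8 members were shared in each list (50%). Whole-list shares at these other settings are not given here, and 18.2% and 22.2% are no comparison for them.

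Control and CDCA peaks stood in nearly the same proportion in the region as in the whole lists. CDCA peaks were 13 of 29 members (44.8%, 26.4 to 64.3), where they were 45.3% of all listed peaks. Subcluster 1 held 3 peaks of each list, and subcluster 2 held 13 control and 10 CDCA peaks. When only peaks with a −log10 q of 50 or more were counted, there were 3 control and 6 CDCA members (66.7% CDCA), where 41.9% of all listed peaks at that level were CDCA peaks. Of these members, 3 CDCA peaks were paired with 2 of the control peaks.

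Fewer peaks per Mb were listed in the subclusters than in the stretch between them. The density was 11 peaks per Mb in subcluster 1 in each list (exact Poisson 95% interval 2.27 to 32.1), and in subcluster 2 it was 16.7 (8.87 to 28.5) in control and 12.8 (6.15 to 23.6) in CDCA. Between the subclusters, where RefSeq lists the butyrophilin genes, ABT1 and ZNF322, it was 50 (35.7 to 68.1) in control and 38.8 (26.3 to 55.0) in CDCA. The interval of this stretch does not overlap that of subcluster 2 in either list, nor that of subcluster 1 in control. It does overlap that of subcluster 1 in CDCA. These intervals treat peaks as independent events, whereas members lay in groups, so they may be too narrow and are not a test. Over chromosome 6 the density was 22.9 and 18.8, below the intervals of the stretch between the subclusters. That stretch was thus itself denser than the chromosome as a whole. Both subclusters lay below the chromosome 6 density in each list, although their intervals contain it. Over the span of its listed peaks alone, subcluster 1 had 18.2 peaks per Mb in each list. Counting only peaks with a −log10 q of 20 or more, subclusters 1 and 2 had 7.33 and 7.69 per Mb in control, with 31.2 between them, and 11 and 6.41 in CDCA, with 13.8 between them. The stretch of 1 Mb before subcluster 1 held 16 control and 13 CDCA peaks, densities close to those of subcluster 2. The 1 Mb after subcluster 2 held 37 and 31.

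**Figure D3:**
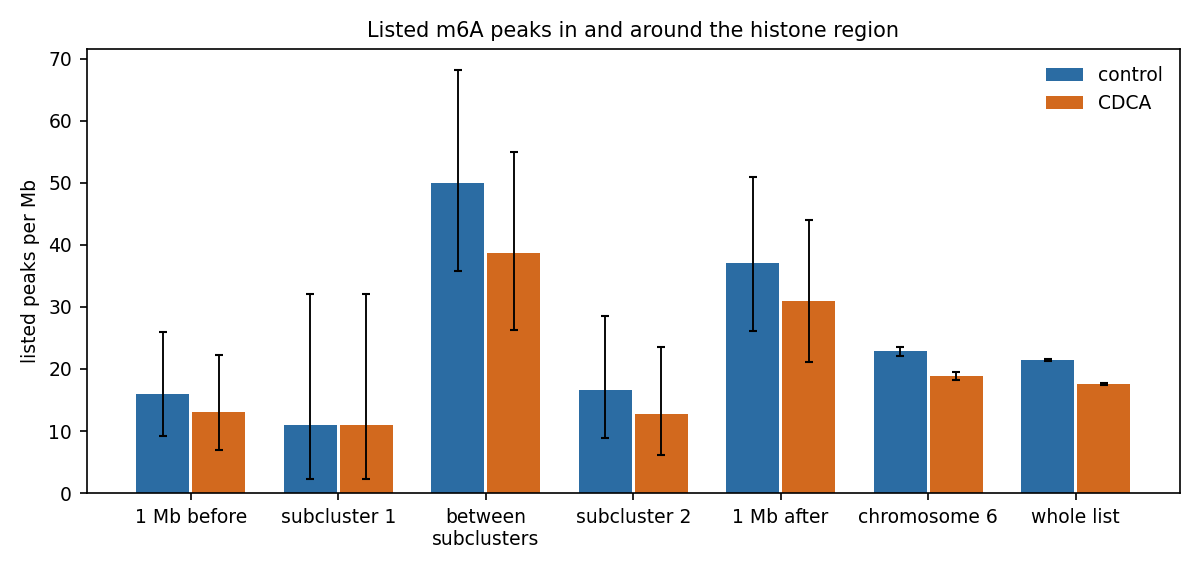
Listed m6A peaks per Mb (y axis) in the control (blue) and CDCA (orange) lists for the subclusters, their neighbouring stretches, chromosome 6 and the whole list; lines are exact Poisson 95% intervals. The subclusters stand at 11 to 16.7 and the stretch between them at 50 in control and 38.8 in CDCA.

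Numbers missing from the lists set an upper limit on how many called peaks the region could have held. Each peak carries a running number along the chromosome, and numbers absent from a list belong to peaks that are not among those used here. Between the nearest listed peaks outside subcluster 1 the control list spans 10 numbers, 3 listed and 7 absent, and the CDCA list 9 numbers, 3 listed and 6 absent. So at most 10 and 9 numbered peaks could lie in the window whose RefSeq run holds 32 histone genes. For subcluster 2 the control list spans 20 numbers, 13 listed and 7 absent, and the CDCA list 18, with 10 listed and 8 absent. The listed part was thus 30.0% and 33.3% in subcluster 1 and 65.0% and 55.6% in subcluster 2. These spans take in gaps that reach outside the windows, so each part is a lower limit for its window. Counted only from the first to the last listed member, 3 of 4 control and 3 of 6 CDCA numbers were listed in subcluster 1. In subcluster 2 this count gave 13 of 19 in control and 10 of 13 in CDCA. Over the whole lists, 57.3% of control and 52.1% of CDCA numbers were listed. The exact 95% intervals of the wider spans contain these whole-list shares in subcluster 1 (6.7 to 65.2 and 7.5 to 70.1) and in subcluster 2 (40.8 to 84.6 and 30.8 to 78.5). So do the intervals of the counts from first to last listed member. In control no number is absent in the 350.7 kb before 27368665, a stretch that takes in the first 278.7 kb of subcluster 2. In CDCA no number is absent between 27420989 and 27834597, where 4 peaks are listed.

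**Figure D4:**
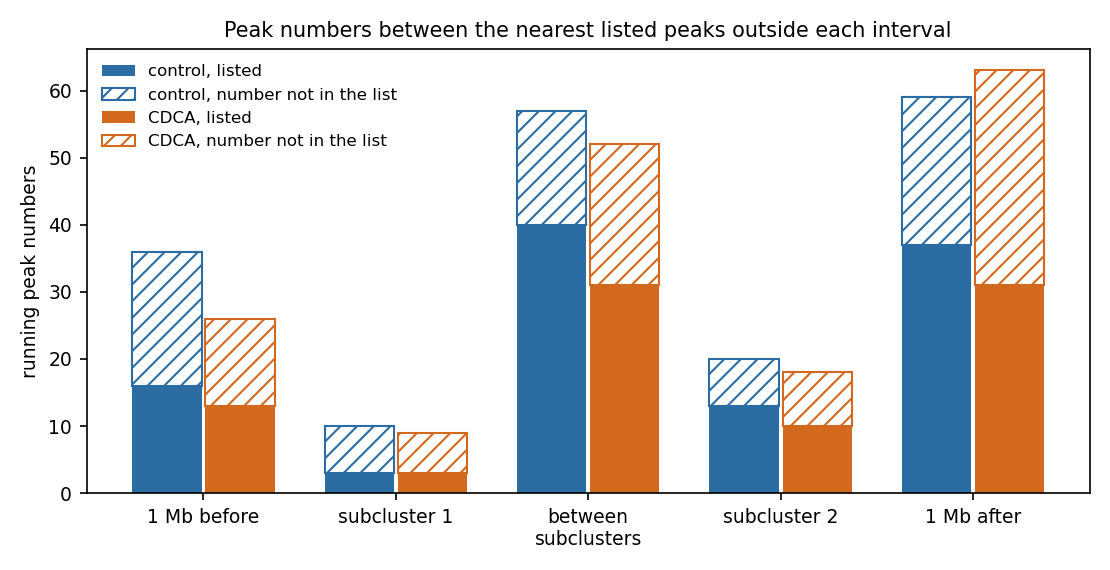
Running peak numbers (y axis) between the nearest listed peaks outside each interval, for the control (blue) and CDCA (orange) lists; solid parts are listed peaks and hatched parts numbers not in the list. Subcluster 1 spans 10 and 9 numbers and subcluster 2 spans 20 and 18, against 57 and 52 between them.

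Members were mostly shorter than the histone genes of RefSeq, as were listed peaks in general. Their median length, 238 bp for control and 303 bp for CDCA peaks, compares with 228 and 224 bp over the whole lists, and 11 of the 29 measured 200 bp, as did 33.3% and 33.2% of the lists. Shorter than every one of the 53 histone genes in RefSeq, of which the shortest has 386 bp, were 13 of 16 control and 9 of 13 CDCA members, among them the 3 high-background peaks. Over the whole lists this held for 84.8% and 83.6% of peaks. Median fold was 10.98 in control and 7.50 in CDCA, beside 9.67 and 8.63 for all peaks. At a −log10 q of 20 or more the CDCA order turned, with a median fold of 17.86 over 8 members and 13.24 over all such peaks, and in control the values were 14.12 and 13.54. The medians over all members rest on 16 and 13 peaks, and each whole-list value lies within the members' interval (8.23 to 16.48 and 6.26 to 21.50 for fold).

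The near-identical histone copies set a limit for any peak that lies over one of them, and which peaks do is not known here. How reads matching several copies were treated is not given in the sources used here, so a peak over a repeated sequence could draw on other copies or be lost, and this was not tested. The count of fragments in a library is unknown. Heights were whole multiples of 0.862 in control and 0.640 in CDCA, and if 1 step is 1 fragment, the members' summits rested on 16 to 2809 fragments in control and 16 to 3716 in CDCA.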

How the data were processed

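m6A peak lists of 1 control and 1 CDCA immunoprecipitation library were used, 2 in all. TopHat2 2.0.13, MACS2 2.1.0 and hg19 are named in the submitters' processing notes without a role. Peaks were listed per library and not on pooled samples. The sources used here give neither thresholds nor the treatment of repeated reads. Per the file headers, the authors' pileup is a signal (height at the summit), fold enrichment is a ratio, and significance was deposited as −log10 of p and q values. Plain intervals deposited beside the tables had identical positions for all 63093 and 52188 peaks.

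Members were taken by summit position. Sharing meant an overlap of at least 1 bp. Local background was height plus 1 over fold, minus 1. Heights were divided by the step that made them whole within 0.02 steps. Shares and densities carry exact 95% intervals, and medians an order-statistic interval. No test between conditions was made. Fold, q and height are set side by side for the 2 lists but were not tested between them. The same cuts on fold or q were applied to both lists, although the count of fragments in each library is unknown. The rule for naming peaks took every shared site, the 10 most significant library-specific members per list, and the highest fold and longest peak per list and subcluster; the few left over are named too, after their values were seen. Gene lists for histone message processing were not read, since the lists name no genes. Members and lists were chosen with earlier results of these data known. Overlap, window and numbering steps were tested on simulated lists. Scripts ran on Python 3.11.15 (scipy 1.17.1, pandas 2.3.3, numpy 2.4.6; plots by matplotlib 3.10.9).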

Additional observations from a re-analysis of the deposited data

How the results depend on the processing

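Of 45 values recomputed for 21 results, 36 stayed within the interval of the value reported, or within 1.5 times a count, and 9 moved. For the listed part of peak numbers, the reported value was the count from first to last listed member. The wider spans were the recomputed setting. Counts of members fell with stricter peaks: 10 control and 6 CDCA at a fold of at least 10, 8 and 8 at a −log10 q of at least 20, and 3 and 6 at 50, where the CDCA part of members was 66.7%. With a fold of at least 10 in both lists, 10% of control and 33.3% of CDCA members were shared. Among peaks reaching a −log10 q of 20, 50% of the members of each list were shared. Whole-list shares at these levels are not given here. Control peaks with a −log10 q of 20 or more had a density of 7.69 per Mb in subcluster 2, with 31.2 between the subclusters. For CDCA peaks this was 11 in subcluster 1, 6.41 in subcluster 2 and 13.8 between them, so the difference of subcluster 1 from that stretch was small. Trimming subcluster 1 to the span of the peaks of both lists together (0.164 Mb) raised its density from 11 to 18.2 in each list. The stricter levels leave fewer peaks by construction. Placing peaks by any overlap changed no count, and equal list sizes left 14 and 13 members. Grouping summits up to 20 kb apart, chosen after seeing the data, gave 8 control and 10 CDCA groups, against 9 and 11. No paired analysis was possible because each condition had 1 library. With 16 and 13 peaks, the intervals of all shares are wide.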
